A study of Mus musculus with 2 samples.

Results

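Non-cycling regulatory T cells are barcodes with T cell transcripts and Foxp3 but without transcripts of CD8, of many macrophage genes or of cell division, and the deposited data held 578 of them among 9059 barcodes that passed the cell filters. There were 209 in the wild-type (WT) library, of 4058 kept barcodes, and 369 in the Ifnar1-SA library, of 5001. The filters required 1000 or more UMIs (unique molecular identifiers, which count captured transcripts), 500 or more genes and no more than 10% of UMIs from mitochondrial genes. Members were chosen by the measured UMI counts of a few genes, so those counts are no finding. A member had at least 3 UMIs of Cd3d, Cd3e, Cd3g and Trac together, at least 1 of Foxp3 and none of Cd8a or Cd8b1. It also had fewer than 10 UMIs of the macrophage genes C1qa, C1qb, C1qc, Lyz2 and Csf1r and fewer than 3 of the cell cycle genes Mki67, Top2a, Ube2c and Birc5.

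The immune cells came from MC38 tumours, grown from a colon adenocarcinoma line of the mouse, 14 days after inoculation, and were profiled by droplet-based 10x sequencing without further treatment. The first genotype was wild type and the other carried Ifnar1-SA, named for an allele of Ifnar1, a gene for 1 of the receptor chains that bind type I interferons, and each is represented by 1 library. The labels name the cells both as immune cells of the tumour and as CD8 T cells, and the presence of Foxp3+ T cells and macrophages goes against a pure CD8 population. The labels give no strain, sex or age, no number of animals per library and no cell sort, and the meaning of SA is not given there.

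Regulatory T cells are CD4 T cells that restrain other T cells, and the transcription factor Foxp3 sets their programme. In tumours they often carry an activated effector state, with high CTLA-4, OX40 (Tnfrsf4) and GITR (Tnfrsf18) and with products such as amphiregulin, granzyme B and interleukin 10. Type I interferons bind the receptor made of IFNAR1 and IFNAR2, and through a complex that includes STAT2 and IRF9 they induce a large set of antiviral genes, which are switched on when that complex binds interferon-stimulated response elements in their promoters.

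Each genotype has 1 library and hence no replicate spread, so the genotypes were compared without a test, and "higher" and "lower" describe these libraries. All intervals are 95% intervals and cover counting error only. The libraries held 55497066 UMIs in WT and 62732220 in Ifnar1-SA. They shared 7 kept barcodes and no member. Transcripts of Xist without Y-linked genes were found in 205 of 209 WT members and 336 of 369 Ifnar1-SA members, and Y-linked transcripts without Xist in 0 and 12, the 0 allowing a share of up to 1.75% by its exact upper bound. The UMIs of Apoe, C1qa, C1qb, C1qc and Lyz2, which nearly empty barcodes of 1 to 50 UMIs hold at 25246 CPM in WT against 24489 CPM in Ifnar1-SA, were at 403 and 431 CPM in members. The rule itself limits all of these genes but Apoe, so these levels do not bound the free RNA in members. Apoe alone was at 11956 CPM in the nearly empty barcodes of WT against 12027 CPM in those of Ifnar1-SA, and at 209 CPM in the members of each. CPM are the UMIs of a gene summed over the cells of a class in a library, per 1000000 of all their UMIs. Where a pair of values is given without names, WT comes first. Every ratio between genotypes is the log2 of Ifnar1-SA over WT, followed by its interval where given.

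The members were of similar depth in both libraries. Their median was 4464 UMIs in WT (1105 to 19304), and 4700 for Ifnar1-SA (1036 to 16673), with medians of 1688 and 1675 genes and of 2.33% and 2.24% mitochondrial UMIs. The median Foxp3 count was 2 UMIs in each library, and 88 WT and 147 Ifnar1-SA members had only 1. Just outside this limit, 315 and 417 barcodes met every other condition with no Foxp3 UMI. The other limits had fewer barcodes beside them. Most lay beside the CD8 limit, where 19 WT and 20 Ifnar1-SA barcodes met every other condition with 1 UMI of Cd8a or Cd8b1. With exactly 3 T cell UMIs there were 4 and 6 members, against 6 and 5 barcodes with 2, and with 2 cell cycle UMIs there were 14 and 25 members, against 6 and 7 barcodes with 3. A Cd4 UMI was present in 101 WT and 199 Ifnar1-SA members. A macrophage sum of 0 was found in 95 and 159 members, and the median sum was 1 in each library.

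Members made up a larger part of the Ifnar1-SA library than of the WT library with every denominator below, but not among cells with Y-linked transcripts. They were 5.15% of kept barcodes in WT (4.49 to 5.88%), and 7.38% for Ifnar1-SA (6.67 to 8.14%), a difference of 2.23 points. After each barcode was thinned to 2000 UMIs, which equalises depth, the shares were 3.49% (2.92 to 4.13%) and 5.08% (4.46 to 5.76%). Of all T cell barcodes below the macrophage limit, members were 11.8% of 1774 in WT and 21.8% of 1691 in Ifnar1-SA. Set against non-cycling CD8 T cells alone, members were 21.8% of the sum of both classes in WT (19.3 to 24.6%), and 38.4% for Ifnar1-SA (35.3 to 41.6%). Set against non-cycling Foxp3-negative CD4 T cells they were 53.5% (48.4 to 58.5%) and 64.7% (60.7 to 68.7%). The difference in share of kept barcodes was 4.58 points among Xist-only cells of both libraries and -2.92 points when Ifnar1-SA cells that held Y-linked UMIs and no Xist, 12 of them members, were compared with WT.

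The non-cycling state was itself more common among regulatory T cells in Ifnar1-SA. Regulatory T cells with at least 3 cell cycle UMIs numbered 104 of 313 in WT, or 33.2% (28.0 to 38.7%), and 77 of 446 in Ifnar1-SA, or 17.3% (13.9 to 21.1%). The cycling cells were deeper, with medians of 12500.5 and 12013 UMIs, so the count of cell cycle UMIs also reads depth. At the common depth of 2000 UMIs the cycling share was 17.7% (12.1 to 24.6%) and 7.57% (4.62 to 11.6%). Without thinning, the cycling share of CD8 T cells was also lower in Ifnar1-SA, at 27.1% of 1026 in WT and 16.8% of 710 in Ifnar1-SA. Their share at a common depth was not measured. With cycling regulatory T cells counted in, the difference in share of kept barcodes was 1.21 points.

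The members carried the marker genes of regulatory T cells at levels above those of other T cells in both libraries, most clearly above CD8 T cells. Ikzf2 (chromosome 1, 69531214 to 69687245, minus strand, mm10), which encodes the transcription factor Helios, was at 2518 CPM in WT members and 2547 CPM in Ifnar1-SA members. Its level was 1066 and 1180 CPM in Foxp3-negative CD4 T cells and 219 and 133 CPM in CD8 T cells. Of the Foxp3-negative CD4 T cells of WT, unthinned, 57.7% held an Ikzf2 UMI and 76.4% a Tnfrsf4 UMI. How many of that class were regulatory T cells whose Foxp3 went uncounted was not tested. At 2000 UMIs per cell, 95.7% of WT members (91.8 to 98.1%) and 95.2% of Ifnar1-SA members (92.3 to 97.2%) held an Ikzf2 UMI, compared with 1.54% and 0.960% of macrophages, which should lack it and whose own median depth was 10655 and 8810 UMIs before thinning. Unthinned, the members' shares were 98.1% and 98.9%. Helios transcripts were therefore found in nearly every member of either library. Tnfrsf4 (chromosome 4, 156013843 to 156016612, plus strand), the gene of the costimulatory receptor OX40, stood at 2478 and 2567 CPM in members and at 183 and 224 CPM in CD8 T cells. Foxp3 itself (chromosome X, 7573644 to 7595245, plus strand), which the rule required, was at 419 and 466 CPM.

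Areg (chromosome 5, 91139599 to 91148432, plus strand), the gene of the tissue repair factor amphiregulin, was the marker that differed most between libraries and between cells. It stood at 836 CPM in WT against 641 CPM in Ifnar1-SA, giving a log2 ratio of Ifnar1-SA over WT of -0.38 (-0.51 to -0.26). The thinned share of members with an Areg UMI was 36.7% (29.8 to 44.0%) in WT and 24.7% (20.2 to 29.7%) in Ifnar1-SA, intervals that just do not overlap, against 0.485% and 0.384% of macrophages. Unthinned, these shares were 45.0% and 33.1% of members. The 5 highest cells held 22.5% of all Areg UMIs of WT members and 30.4% of those of Ifnar1-SA members, so the level rests on a minority of cells. With at least 2 Foxp3 UMIs required, the Areg ratio was -0.89. In cycling regulatory T cells Areg was at 318 CPM in WT against 112 CPM in Ifnar1-SA.

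**Figure D1:**
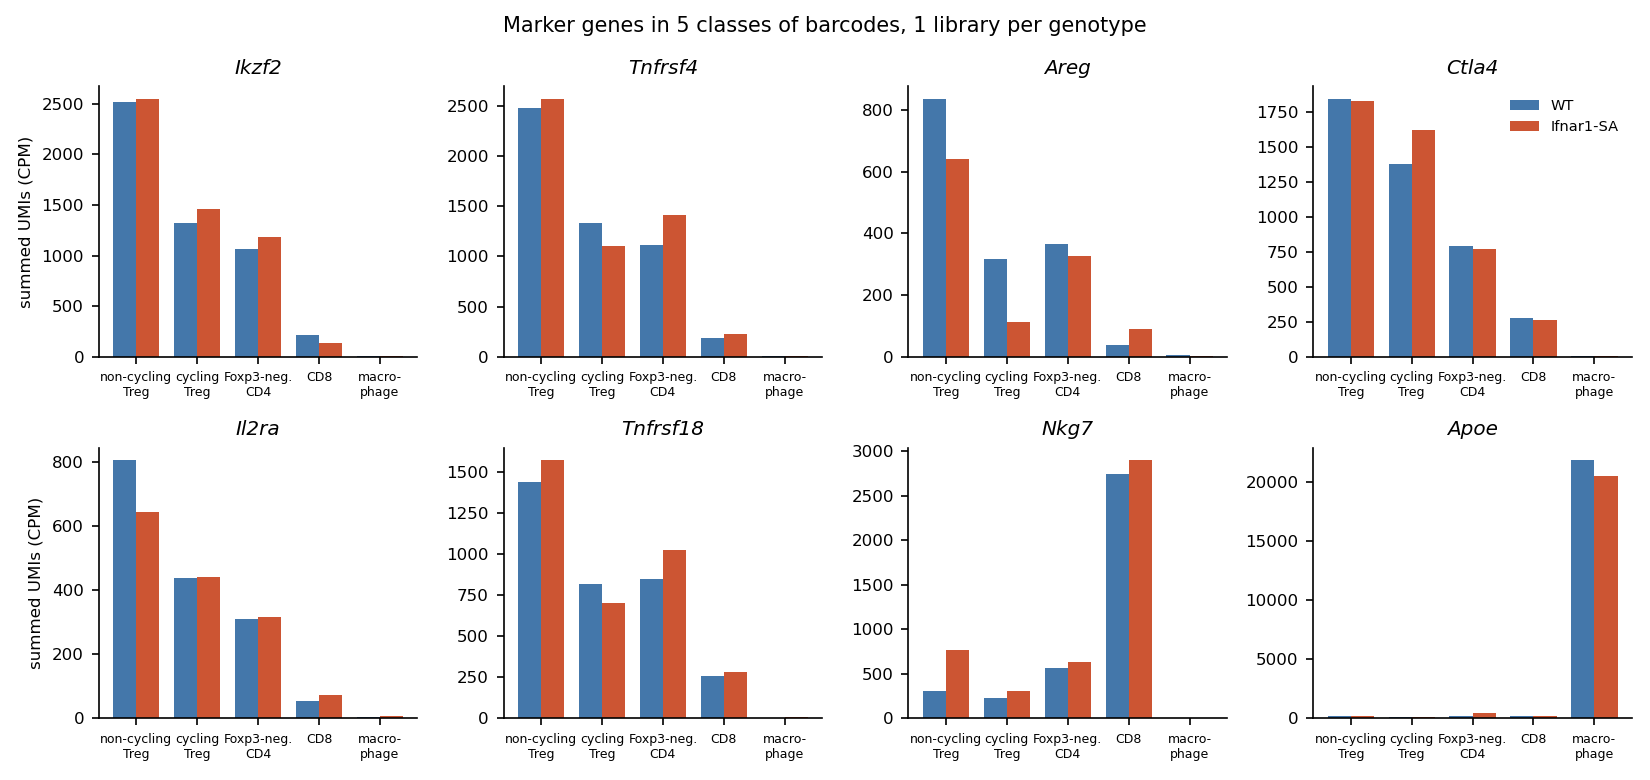
Levels of 6 regulatory T cell markers, of the cytotoxic granule gene Nkg7 and of the macrophage gene Apoe in 5 classes of barcodes. Bars are UMIs summed over the cells of a class in 1 library, in CPM, with WT in blue and Ifnar1-SA in red. Ikzf2 is at 2518 and 2547 CPM in members of WT and Ifnar1-SA, and Apoe, at 209 CPM in members of either library, is at 21845 and 20537 CPM in macrophages.

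Transcripts of other lineages were counted over whole marker lists. Of 15 markers of cytotoxic T and natural killer cells 8 had 0 UMIs in the members of each library, among them Gzmk, Klrb1c and Ncr1, and also Cd8a and Cd8b1, which the rule sets to 0. All 15 together were at 390 CPM in WT against 871 CPM in Ifnar1-SA, most of it Nkg7. Of 9 gamma-delta T cell markers 5, Trdc included, were at 0 in each, and the sums were 6.64 and 3.29 CPM. Of 8 B and plasma cell markers 4, Ms4a1 included, were at 0 in each, and the sums were 282 and 292 CPM, nearly all from Ighm and Igkc. Of 10 dendritic cell markers outside the rule 3 and 2 were at 0, Siglech in both libraries, and of 13 tumour and stroma markers 3 and 4 were, Krt8 in both. The dendritic cell markers had sums of 674 and 976 CPM, nearly all from Bst2, which is also a gene of the type I interferon list described below. Bst2 was the only 1 of them to reach 20 CPM on average over the libraries. The tumour and stroma markers had sums of 2939 and 3121 CPM. The 2 of them that reached 20 CPM on average were S100a6 and Pecam1, and most of each sum came from S100a6. Thinned members held a mean of 5.64 S100a6 UMIs in WT and 5.91 in Ifnar1-SA. In CD8 T cells the same list had sums of 2877 and 2590 CPM, and in Foxp3-negative CD4 T cells 2011 and 2085 CPM. Whether any of it came from tumour or stroma was not tested. Nkg7, a granule protein gene of cytotoxic cells, was present in members at 312 CPM in WT against 767 CPM in Ifnar1-SA and in CD8 T cells at 2738 and 2896 CPM. Cd40lg, the CD40 ligand gene of helper T cells, was at 6.64 and 11 CPM in members and at 74.2 and 62.7 CPM in Foxp3-negative CD4 T cells. Of 22 macrophage and MHC class II genes 15 were measured (20 CPM or more on average over the libraries). Some genes of this list, Lyz2 among them, are limited by the rule. Together its transcripts were higher in Ifnar1-SA, at 2786 CPM in WT against 3829 CPM in Ifnar1-SA.

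Compared with non-cycling Foxp3-negative CD4 T cells, the members' leading genes were Myb, a transcription factor gene, followed by Rapsn, Bnip3, Sypl and Klrg1. Myb was at 93.9 CPM in WT members against 22.3 CPM in the CD4 class, and at 65.2 against 24.6 CPM in Ifnar1-SA. As the classes are cut from the same cells by Foxp3, and the CD4 class also by Cd4, these are descriptions. Of 2623 genes compared, 42 (1.6%) were at least 2-fold higher in members in both libraries and 64 (2.44%) at least 2-fold lower. The genes described next were chosen from these after their values were seen. Lrrc32, the gene of the latent TGF-beta anchor GARP, was at 74.9 CPM in WT members against 29.7 CPM in the CD4 class, and at 95.4 against 30.7 CPM in Ifnar1-SA. Klrg1, an inhibitory receptor of differentiated lymphocytes, was at 341 against 118 CPM in WT and 369 against 146 CPM in Ifnar1-SA. Ctla4, Ikzf4, Izumo1r (the folate receptor 4 gene) and Gzmb were in the same group. Lower in members were Ccl1, Csf2, Ifng, Tnfsf11 (RANK ligand), Tnfsf8 (CD30 ligand) and Bcl2. Ifng, the interferon gamma gene, was at 12.3 CPM in WT members against 161 CPM, and at 12.1 against 114 CPM in Ifnar1-SA. Nrp1, often used as a mark of thymus-derived regulatory T cells, was lower in members, at 10.4 against 63.1 CPM in WT and 12.1 against 70.1 CPM in Ifnar1-SA.

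The distance from non-cycling CD8 T cells was wider. Of 2626 genes compared, 277 (10.5%) were at least 2-fold higher in members in both libraries and 83 (3.16%) at least 2-fold lower. Itgb8, whose integrin activates latent TGF-beta, was at 187 CPM in WT members against 3.23 CPM in CD8 T cells and at 181 against 3.37 CPM in Ifnar1-SA, log2 ratios of 5.86 (5.05 to 6.79) and 5.74 (4.85 to 6.82). Klrg1 followed at 5.52 and 5.64 on the same scale. Maf, a transcription factor tied to interleukin 10, was at 1057 against 17.9 CPM in WT and 1072 against 36.1 CPM in Ifnar1-SA.

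Between the genotypes most genes of the members differed little. Of 2925 genes that reached 50 CPM in a library and 30 UMIs in all, 89 (3.04%) were at least 1.5-fold higher in Ifnar1-SA and 94 (3.21%) at least 1.5-fold lower. At any size, 47.6% were higher. The median log2 ratio was -0.01, with quartiles of -0.20 and 0.15. The interval lay wholly above 1.5-fold for 34 genes (1.16%) and wholly below for 9 (0.308%). Leaving out predicted, mitochondrial, ribosomal, antigen receptor, sex-linked and rule genes, 33 and 6 remained, and 16 of those 33 belong to the type I interferon list.

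**Figure D2:**
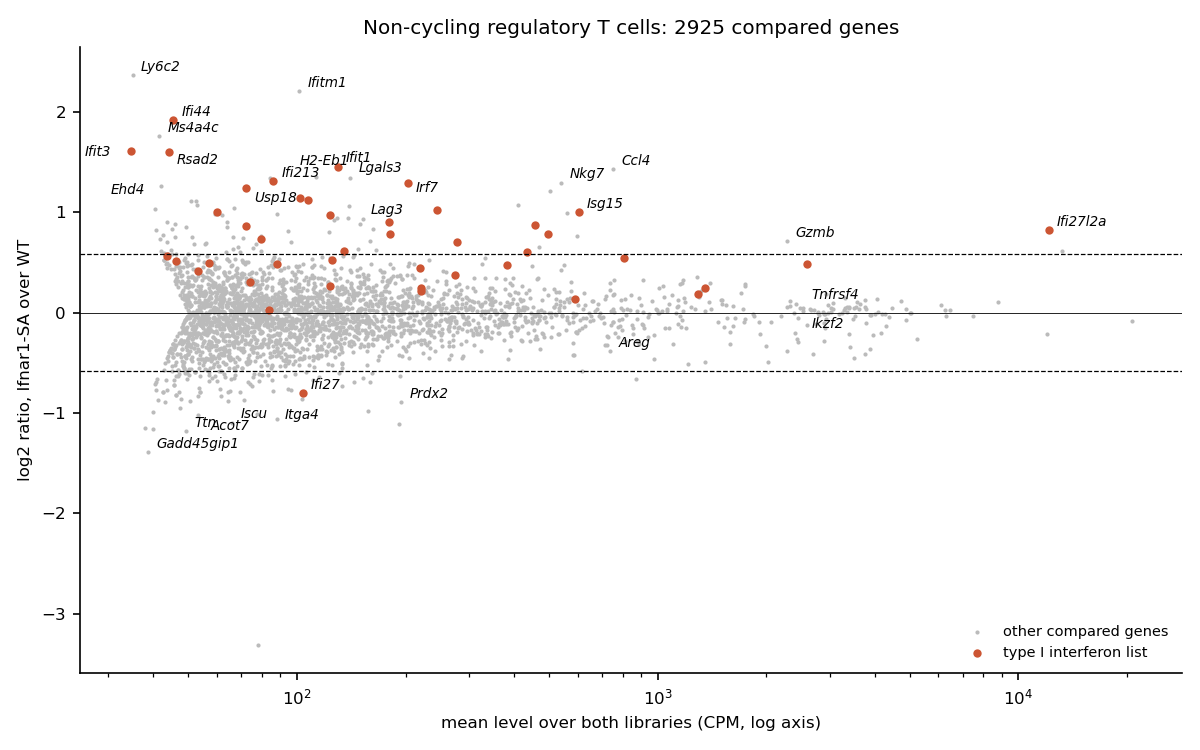
Log2 ratio of Ifnar1-SA over WT for each of the 2925 compared genes of non-cycling regulatory T cells, against its mean level over both libraries in CPM on a log axis. Red points are genes of the type I interferon list, grey points other genes, and dashed lines mark 1.5-fold. The highest named ratio is 2.37 (Ly6c2), and the unlabelled grey point at -3.31 is the predicted gene Gm47283, at 141 CPM in WT against 14.3 CPM in Ifnar1-SA.

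Ifnar1 transcripts (chromosome 16, 91485238 to 91507441, plus strand) were present in members of both libraries, with 93 UMIs in WT, or 88.2 CPM, against 200 UMIs in Ifnar1-SA, or 109.6 CPM, a ratio of 0.31 (-0.05 to 0.68). Such counts do not show the allele and are no check of the genotype. Ifnar2, the other receptor chain, was at 83.5 CPM in WT against 57.0 CPM in Ifnar1-SA, a ratio of -0.55 (-0.97 to -0.12). Jak1 and Tyk2, the kinases of this receptor, had ratios of 0.02 (-0.25 to 0.30) and -0.26 (-0.79 to 0.28). Of the transcription factors that act below it, Stat2 stood at 59.8 CPM in WT against 99.2 CPM in Ifnar1-SA, at 0.73 (0.31 to 1.17), whereas Irf9 was at 82.5 and 84.4 CPM, at 0.03 (-0.36 to 0.43). Usp18, a protease that dampens the receptor's signal and is itself induced by it, was at 42.7 and 101 CPM, at 1.25 (0.77 to 1.75). Socs1, another inhibitor of the pathway, was at 101 and 74.5 CPM, at -0.43 (-0.81 to -0.05). Of the 19 measured genes of receptors and signalling 13 were higher and 6 lower, with a median of 0.06, and Irf7, Usp18 and Stat2 were the 3 past 1.5-fold. Of all genes at 20 CPM or more on average 46.1% were higher, 3.54% by at least 1.5-fold.

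The genes that type I interferon induces were higher in Ifnar1-SA nearly across the list. Of 61 genes, 54 were measured, 50 of these were higher in Ifnar1-SA, 25 by at least 1.5-fold, and 1 was lower by that much. Over all 5061 genes of that level 46.1% were higher, 3.54% by at least 1.5-fold, and 5.57% were lower by that much. The list's median log2 ratio was 0.54, against -0.03 for all those genes. The list's UMIs together were at 19752 CPM in WT against 31296 CPM in Ifnar1-SA, of which Ifi27l2a alone held 8768 and 15491 CPM. Among 20 alternatives to the processing the median stayed between 0.41 and 0.78, while it was -0.10 when just the 12 Ifnar1-SA members that held Y-linked UMIs and no Xist were compared with WT. The 0.78 was without the 5 highest cells of each gene, which are a larger part of the WT than of the Ifnar1-SA members.

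Sequences upstream of 4 list genes are shown because they carry the interferon-stimulated response element, whose core was searched as GAAA, any 2 bases and GAAA again, on either strand and with overlaps counted. They run from base -160 to base -31 before the start of transcription, 5′ to 3′ on the gene's strand, from RefSeq (GRCm38.p6), and capitals mark the matches. Isg15 lies on the minus strand at chr4:156200849-156200978, Ifit1 on the plus strand at chr19:34640729-34640858, Rsad2 on the minus strand at chr12:26456483-26456612 and Ifit3 on the plus strand at chr19:34583369-34583498.
Isg15: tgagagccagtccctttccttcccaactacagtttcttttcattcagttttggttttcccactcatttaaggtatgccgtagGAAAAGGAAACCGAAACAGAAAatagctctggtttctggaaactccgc
Ifit1: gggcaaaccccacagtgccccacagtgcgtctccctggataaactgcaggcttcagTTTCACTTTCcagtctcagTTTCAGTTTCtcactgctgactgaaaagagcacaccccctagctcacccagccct
Rsad2: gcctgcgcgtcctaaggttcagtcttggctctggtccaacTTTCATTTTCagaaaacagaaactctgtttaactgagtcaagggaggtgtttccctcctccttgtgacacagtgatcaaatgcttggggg
Ifit3: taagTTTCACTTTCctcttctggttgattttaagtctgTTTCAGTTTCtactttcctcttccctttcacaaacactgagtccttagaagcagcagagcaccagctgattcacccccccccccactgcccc
Isg15 holds 3 overlapping matches, first at base -78, Ifit1 and Ifit3 hold 2 each, and Rsad2 holds 1, at base -120.

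In promoter windows of 300 bases, 250 before and 50 after the start, the core was present in 24 of the 43 measured list genes with a window, or 55.8%, compared with 122 of 2329 compared genes (5.24%) and 1079 of all 27025 genes (3.99%). Among all genes at least 1.5-fold higher in Ifnar1-SA it was present in 17 of 74 (23%), of which 11 are genes of the list, and outside the list in 6 of 55 (10.9%). Among those at least 1.5-fold lower it was present in 1 of 72 (1.39%). Within the list the core was about as common in genes past 1.5-fold (11 of 21) as in those under it (13 of 22). Irf7, Ifi44, Gzmb and Foxp3 have no match in their windows. A match is a stretch of letters, and no binding was measured here.

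Isg15 (chromosome 4, 156199424 to 156200818, minus strand), which encodes a ubiquitin-like modifier, had 424 UMIs in WT members and 1468 in Ifnar1-SA members, 402 and 805 CPM, a log2 ratio of 1.0 (0.84 to 1.16). Irf7 (chromosome 7, 141262706 to 141266481, minus strand), the transcription factor that amplifies interferon production, stood at 118 and 288 CPM, at 1.29 (1.01 to 1.58). Ifit1, whose protein binds viral RNA, stood at 69.3 and 190.2 CPM, at 1.46 (1.09 to 1.84). For these 3 genes the whole interval lay above 1.5-fold, and the UMIs were spread over 104 and 248 members for Isg15, 68 and 208 for Irf7 and 38 and 116 for Ifit1. The Irf7 ratio ran from 1.16 to 1.57 over the alternatives other than the split by Y-linked transcripts. Isg15 was at 0.56 when at least 2 Foxp3 UMIs were required. In the 12 Ifnar1-SA members with Y-linked transcripts only, set against WT, the ratio was -0.20 for Irf7 and -2.02 for Ifit1. With 12 cells these ratios rest on few UMIs, and their intervals are not given.

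Lower-level antiviral genes had larger ratios with wider intervals. Oasl1, of the oligoadenylate synthetase-like family, had 11 UMIs in WT members and 78 in those of Ifnar1-SA, at 2.03 (1.12 to 3.09). Ifi44 had 20 and 131 UMIs, at 1.92 (1.23 to 2.68). Rsad2 (viperin) had 23 and 121 UMIs, at 1.6 (0.95 to 2.32), and Ifit3 had 18 and 95, at 1.61 (0.87 to 2.42). These counts are small, and the 5 highest WT cells held 60% of the Ifi44 and 50% of the Ifit3 UMIs. The abundant genes of the list had smaller ratios. Ifi27l2a, an interferon-induced mitochondrial protein gene, was at 8768 and 15491 CPM, at 0.82 (0.79 to 0.86), and Bst2 (tetherin) at 656 and 960.3 CPM, at 0.55 (0.42 to 0.68). Ly6a (Sca-1) was at 2159 and 3018 CPM, at 0.48 (0.41 to 0.55). The p200 family of DNA sensors, whose members are close copies of each other so that reads may be split between them, was higher too, with Ifi213 at 1.32 (0.87 to 1.78), Ifi206 at 1.12, Ifi209 at 1.03 and Ifi203 at 0.78.

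The list's exception past 1.5-fold was Ifi27 (chromosome 12, 103434211 to 103440239, plus strand), of the same family as Ifi27l2a. It had 139 UMIs in WT members and 138 in those of Ifnar1-SA, or 132 and 75.6 CPM, a log2 ratio of -0.80 (-1.15 to -0.45). Oas1a at -0.17 (-0.70 to 0.38), Parp12 at -0.14 (-0.86 to 0.60) and Eif2ak2 at -0.05 (-0.57 to 0.48) were the other 3 below 0, each with an interval that includes 0. Ifi27 was below 0 in the other T cell classes too, at -0.84 (-1.23 to -0.46) in Foxp3-negative CD4 T cells, -0.35 (-0.68 to -0.02) in cycling regulatory T cells and -0.43 (-0.60 to -0.25) in CD8 T cells.

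**Figure D3:**
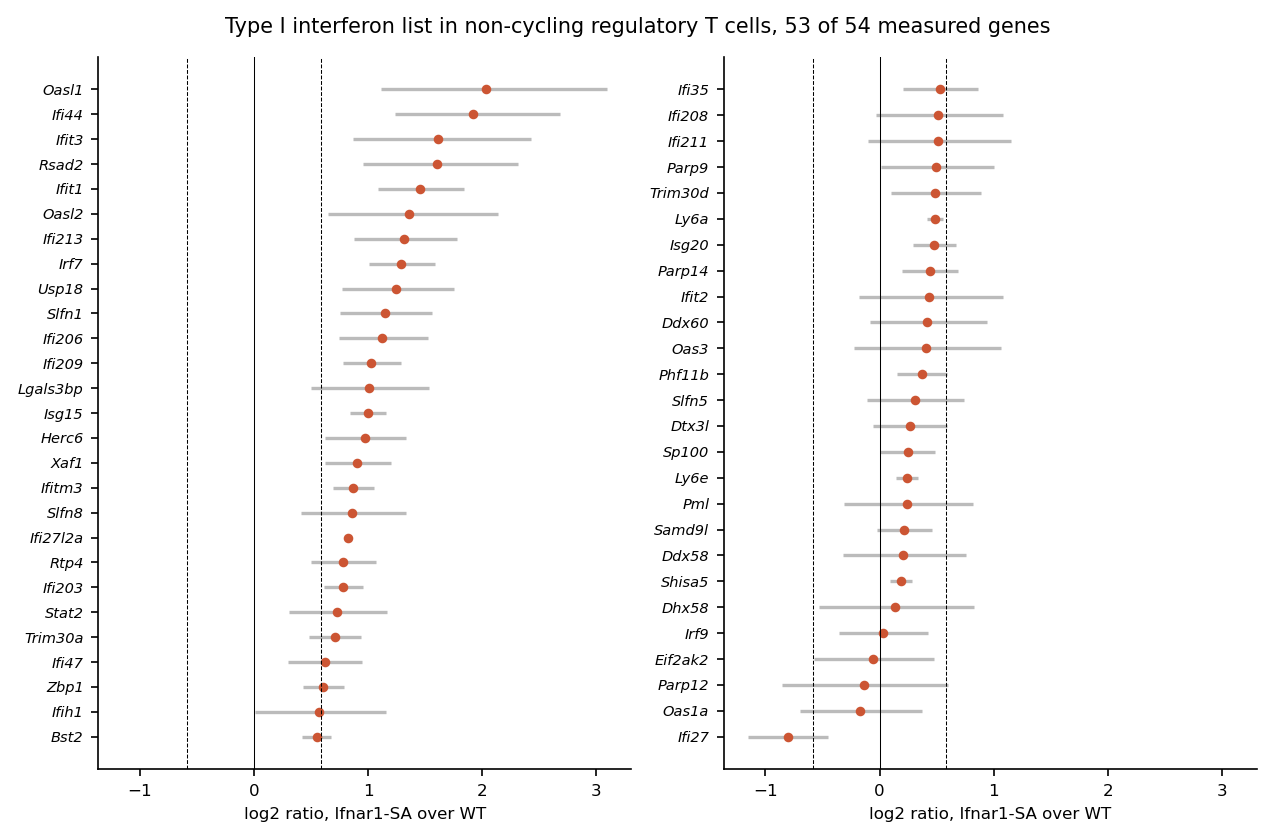
Log2 ratio of Ifnar1-SA over WT for the 54 measured genes of the type I interferon list in non-cycling regulatory T cells, ordered by ratio, with 1 of them not shown. Points are ratios, grey bars 95% intervals for counting error, and dashed lines 1.5-fold. The ratios run from 2.03 for Oasl1 to -0.80 for Ifi27, and 50 of the 54 genes lie above 0, the gene not shown among them.

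The difference was spread over cells. With each cell thinned to 2000 UMIs, which left 188 WT and 332 Ifnar1-SA members, the list's summed UMIs per cell had a median of 34 in WT, with quartiles of 22 and 56 and a range of 5 to 129. In Ifnar1-SA the median was 55, with quartiles of 37 and 87 and a range of 14 to 218. The means were 40.4 ± 24.7 and 63.5 ± 36.0 UMIs (SD over cells). The distributions overlap widely, and the lowest, middle and highest values are all higher in Ifnar1-SA. Without Ifi27l2a, Ly6a, Ly6e and Shisa5, the abundant genes of the list, the medians were 10 and 16.

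Shares of cells tell the same of single genes. At 2000 UMIs, an Irf7 UMI was found in 16.5% of WT members (11.5 to 22.6%) and 38% of Ifnar1-SA members (32.7 to 43.4%), and unthinned in 32.5% and 56.4%. An Isg15 UMI was found in 36.2% (29.3 to 43.5%) and 54.2% (48.7 to 59.7%), and unthinned in 49.8% and 67.2%. Macrophages express both genes, so their shares do not serve as a background here. At 2000 UMIs, of WT members with an Isg15 UMI 32.4% had an Irf7 UMI, against 7.50% of those without, and in Ifnar1-SA 47.8% against 26.3%. For Ifit1 these shares were 17.6% against 4.17% in WT and 31.7% against 5.92% in Ifnar1-SA.

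**Figure D4:**
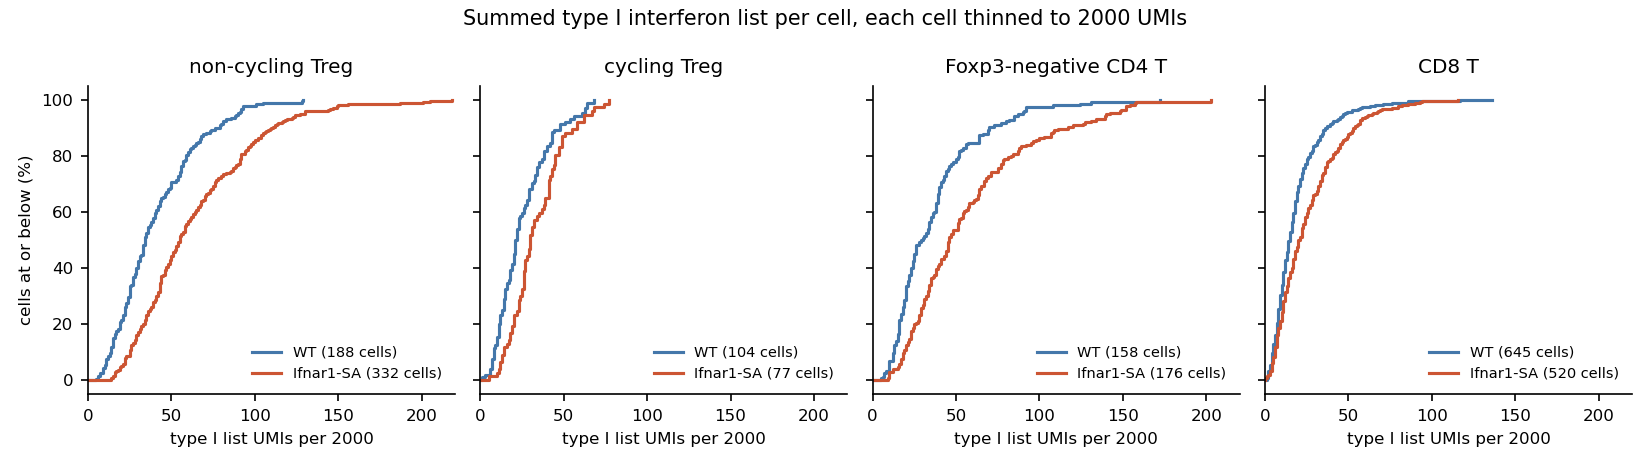
Cumulative share of cells, in percent, against the summed UMIs of the type I interferon list per cell after thinning to 2000 UMIs, in 4 classes of T cells, with WT in blue and Ifnar1-SA in red. The Ifnar1-SA curve lies to the right of the WT curve for members, with medians of 55 and 34, and for CD8 T cells the medians are 20.5 and 15.

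The neighbouring classes had the same direction, to differing degrees. The list's median log2 ratio was 0.54 in cycling regulatory T cells, with 44 of 49 measured genes higher, 0.72 in Foxp3-negative CD4 T cells, with 55 of 57 higher, and 0.29 in CD8 T cells, with 41 of 48 higher. At least 1.5-fold higher were 24, 39 and 7 list genes in these classes, against 4.49%, 7.51% and 2.64% of all genes of that level in them, of which 51.2%, 51.1% and 55.2% were higher at all. Irf7 had ratios of 1.35 (0.92 to 1.79), 1.67 (1.30 to 2.04) and 0.77 (0.52 to 1.01) in them, and the last interval just touches that of the members at 1.01. Isg15 had 1.03 (0.83 to 1.24), 1.13 (0.94 to 1.33) and 0.41 (0.27 to 0.54), so that the members' interval of 0.84 to 1.16 overlaps those of both CD4 lineage classes and lies above that of CD8 T cells. Per cell at 2000 UMIs, the list's sum had medians of 21.5 and 30 in cycling regulatory T cells, 29.5 and 46 in Foxp3-negative CD4 T cells, 15 and 20.5 in CD8 T cells and 35 and 49 in macrophages, WT first. The differences between classes were not tested.

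Genes that lean towards interferon gamma and genes of MHC class I, which both interferon types can induce, had medians near 0. Of 21 measured interferon gamma genes 15 were higher in Ifnar1-SA and 2 by at least 1.5-fold, with a median of 0.10. The shares over all genes of that level were 46.1% and 3.54%. Irgm1, an immunity-related GTPase, was at 39.8 and 78.9 CPM, at 0.99 (0.48 to 1.52). Of 21 MHC class I genes 13 were higher, none by 1.5-fold, with a median of 0.08, and B2m was at 5933 and 6277 CPM.

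Genes of regulatory T cell identity were close to equal in both libraries. Of 12 measured, 8 were higher and 4 lower in Ifnar1-SA, none by 1.5-fold, with a median of 0.07. Ikzf2 had a ratio of 0.02 (-0.05 to 0.09) and Ctla4 of -0.01 (-0.09 to 0.07). Tnfrsf18 was at 1434 and 1568 CPM, at 0.13 (0.04 to 0.22). Il2ra, the high-affinity chain of the interleukin 2 receptor, was lower at 805 and 646 CPM, at -0.32 (-0.45 to -0.19), and so was Izumo1r at 306 and 222 CPM, at -0.47 (-0.68 to -0.25). Of 13 genes of the interleukin 2 and STAT5 pathway 10 were lower, none by 1.5-fold, with a median of -0.09. Over all genes of 20 CPM or more on average 46.1% were higher, with a median of -0.03.

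Effector genes went both ways. Of 29 measured, 15 were higher and 14 lower, with a median of 0.00, and 3 were higher and 1 lower by at least 1.5-fold. Over all genes of that level 3.54% were higher and 5.57% lower by that much. Gzmb (chromosome 14, 56258838 to 56262260, minus strand), which encodes granzyme B, was at 1723 CPM in WT against 2832 CPM in Ifnar1-SA, at 0.72 (0.64 to 0.80). It was found at 2000 UMIs in 71.8% of WT (64.8 to 78.1%) and 81.9% of Ifnar1-SA members (77.4 to 85.9%), against 1.38% and 1.6% of macrophages, and unthinned in 79.9% and 88.1% of members. Most members thus held Gzmb in either library. The ratio was -0.12 in the 12 Ifnar1-SA members with Y-linked transcripts only. Il10, at 62.6 and 95.9 CPM, had a ratio of 0.62 (0.20 to 1.05), which was -0.09 when 2 Foxp3 UMIs were required. Il1rl1, the interleukin 33 receptor gene ST2, was the effector gene lower by at least 1.5-fold, at 121 and 71.3 CPM, at -0.77 (-1.13 to -0.41). Icos, Maf, Batf, Tnfrsf9 and Entpd1 (CD39) had ratios of 0.15, 0.02, 0.19, -0.14 and 0.11.

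Of 13 measured genes tied to suppression by secreted or surface products 8 were higher and 5 lower, with a median of 0.11. Lag3, Gzmb and Il10 were the 3 past 1.5-fold, all higher, where of all genes of that level 3.54% were higher by that much. Tgfb1 was at 208 and 170.5 CPM, at -0.29 (-0.54 to -0.03), Ebi3, of interleukin 35, at 71.1 and 71.3 CPM, at 0.00 (-0.42 to 0.43), and Itgb8 at -0.05. Inflammatory cytokine genes, 13 in the list, were all below the level at which a gene counted as measured.

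Among inhibitory receptors Lag3 (chromosome 6, 124904361 to 124911705, minus strand), which binds MHC class II, was at 104 CPM in WT against 200.1 CPM in Ifnar1-SA, at 0.94 (0.63 to 1.26). Pdcd1, the PD-1 gene, was at 89.2 and 156 CPM, at 0.80 (0.46 to 1.16). At 2000 UMIs, Lag3 was found in 17.6% (12.4 to 23.8%) and 23.8% (19.3 to 28.7%) of members and Pdcd1 in 14.4% (9.68 to 20.2%) and 20.8% (16.5 to 25.6%), and these intervals overlap. Unthinned, the shares were 27.3% and 40.9% for Lag3 and 25.8% and 34.4% for Pdcd1. Macrophage shares were 1.21% and 1.22% for Lag3 and 0.485% and 0.384% for Pdcd1. In Foxp3-negative CD4 T cells Pdcd1 was lower in Ifnar1-SA, at -0.70 (-0.96 to -0.44), and in CD8 T cells at -0.25 (-0.35 to -0.15). Havcr2 (TIM-3) and Klrg1 had ratios of 0.04 (-0.25 to 0.34) and 0.12 (-0.07 to 0.31), and Cd200 was lower at -0.79 (-1.39 to -0.20). The 9 measured inhibitory receptors had a median of 0.04. Of 12 costimulatory receptors, whose median was 0.09, Cd27 was higher at 105 and 194 CPM, at 0.88 (0.57 to 1.20), and Cd226 lower at 34.2 and 15.3 CPM, at -1.15 (-1.92 to -0.40).

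Ccl4 (chromosome 11, 83662584 to 83664683, plus strand), an inflammatory chemokine gene, was at 406 CPM in WT against 1098 CPM in Ifnar1-SA, at 1.44 (1.28 to 1.59). It had UMIs in 42 WT and 114 Ifnar1-SA members, and the 5 highest cells held 66.6% and 37.0% of them. Without those 5 cells of each library the ratio was 2.35. They are a larger part of the 209 WT than of the 369 Ifnar1-SA members. The thinned share was 16% (11 to 22%) in WT and 25% (20.4 to 30%) in Ifnar1-SA, intervals that overlap, and unthinned it was 20.1% and 30.9%. Ccl4 also led the genes by variation between cells in both libraries. Macrophages make Ccl4 themselves, with a UMI in 34.0% and 40.9% of them at that depth. In Foxp3-negative CD4 T cells Ccl4 had a ratio of 2.71 (2.42 to 3.01), in CD8 T cells 0.89 (0.84 to 0.93) and in cycling regulatory T cells -0.31 (-0.87 to 0.24). Cxcl10, an interferon-induced chemokine, was at 73.0 and 119 CPM with 76.6% and 48.2% of its UMIs in 5 cells, and Ccl5 was at 754 and 826 CPM, at 0.13 (0.01 to 0.26). Of 10 measured chemokine receptor genes 8 were lower, with a median of -0.28, and Cxcr6 alone was past 1.5-fold, higher at 0.65 (0.22 to 1.09). Over all genes of 20 CPM or more on average 46.1% were higher, 3.54% by at least 1.5-fold, with a median of -0.03.

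Nkg7 (chromosome 7, 43437073 to 43438249, plus strand) was at 312 CPM in WT members and 767 CPM in Ifnar1-SA members, at 1.30 (1.12 to 1.47). At 2000 UMIs it was found in 29.3% (22.9 to 36.3%) and 40.1% (34.7 to 45.6%) of members, against 1.29% and 1.47% of macrophages, and unthinned in 39.7% and 49.1% of members. In the other classes the Nkg7 ratio was 0.42 (0.19 to 0.64) in cycling regulatory T cells, 0.17 (-0.01 to 0.36) in Foxp3-negative CD4 T cells and 0.08 (0.04 to 0.12) in CD8 T cells, so the interval of the members lay above those of all 3. Cells with Nkg7 more often held Lag3 and Ccl4. Of WT members with an Nkg7 UMI 34.5% had Lag3 and 25.5% Ccl4, against 10.5% and 12.0% of those without, and in Ifnar1-SA 36.8% and 39.1% against 15.1% and 15.6%. Ccl4 was found in 17.6% of WT members with Isg15 and 15% of those without, and in 25.6% and 24.3% in Ifnar1-SA.

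Other named genes above 1.5-fold belong to no single list. Lgals3 (chromosome 14, 47367751 to 47386160, plus strand), the galectin-3 gene, was at 79.7 and 202 CPM, at 1.34 (0.99 to 1.70), with UMIs in 46 and 159 members. Macrophages hold much Lgals3, with a UMI in 74.4% and 71.5% of them at 2000 UMIs, and with free RNA subtracted the members' ratio was 1.52. Ms4a4b, a membrane protein gene of T cells, was at 375 and 747 CPM, at 1.0 (0.83 to 1.16), and its thinned share was 38.3% (31.3 to 45.7%) in WT and 62.0% (56.6 to 67.3%) in Ifnar1-SA, against 3.64% and 7.93% of macrophages, and unthinned 56.0% and 72.1% of members. Ehd4, which acts in endosome traffic, was at 24.7 and 59.2 CPM, at 1.26 (0.63 to 1.94). Malat1, a nuclear noncoding RNA whose level can follow RNA quality, was at 10421 and 15957 CPM, at 0.61 (0.58 to 0.65), and was at 0.30 in Foxp3-negative CD4 T cells, -0.05 in CD8 T cells and -0.02 in cycling regulatory T cells. Its part in the other ratios was not tested.

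Several of the highest ratios rested on few cells. Ifitm1 had 38 UMIs in 4 WT cells and 304 UMIs in 15 Ifnar1-SA cells, with 100% and 96.7% of them in the top 5 cells. The Ifitm1 ratio of 2.21 (1.72 to 2.74) was 0.74 among Xist-only cells and 0.53 among members with no cell cycle UMI. Ly6c2 (chromosome 15, 75108158 to 75111970, minus strand), a gene of monocytes and of some T cells that has a near-identical neighbour, was at 11.4 and 58.6 CPM, at 2.37 (1.5 to 3.36), in 10 and 34 members. H2-Eb1, a chain of MHC class II, was at 63.6 and 162 CPM, at 1.35 (0.97 to 1.76), with 52.2% and 70.9% of its UMIs in 5 cells. Cst3, the cystatin C gene that is high in dendritic cells and macrophages, was at 303 and 700.5 CPM, with 14.1% and 64.9% in 5 cells. Without the 1 WT and 5 Ifnar1-SA members that held at least 10 MHC class II UMIs (H2-Aa, H2-Ab1 and H2-Eb1 together) the ratio was 1.04 for Ly6c2, 0.14 for H2-Eb1, -0.16 for Cst3 and -0.28 for H2-Ab1.

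The macrophage and MHC class II list as a whole was higher in Ifnar1-SA. Of its 15 measured genes 14 were higher in Ifnar1-SA, 6 by at least 1.5-fold, with a median of 0.35. The list's median was -0.11 among members with a macrophage sum of 0. That setting holds the rule's macrophage genes, Lyz2 of this list among them, at 0, so the medians do not cover the same genes. Of all genes of that level 46.1% were higher, 3.54% by at least 1.5-fold. C1qa was at 45.5 and 60.8 CPM, Lyz2 at 65.5 and 58.6 CPM and Apoe at 209 CPM in each. Of the dendritic cell markers, Xcr1 had 2 and 4 UMIs, Clec9a 1 and 0, Flt3 1 and 1 and Ccl22 0 and 1. The type I interferon median was 0.54 without the cells rich in MHC class II and 0.66 among members with a macrophage sum of 0. The part of these transcripts in the other ratios was not tested.

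Fewer named genes were lower. Itga4 (chromosome 2, 79255426 to 79333123, plus strand), the alpha 4 integrin chain used for entry into tissue, was at 119 CPM in WT against 57.0 CPM in Ifnar1-SA, at -1.06 (-1.45 to -0.67). It was found at 2000 UMIs in 18.1% of WT (12.9 to 24.3%) and 7.53% of Ifnar1-SA members (4.93 to 10.9%), and unthinned in 30.6% and 14.1%. Macrophages held it in 11% and 12.9% at that depth, with no drop in Ifnar1-SA. Itga4 was lower in Ifnar1-SA in every T cell class compared, at -1.12 (-1.60 to -0.67) in cycling regulatory T cells, -0.63 (-1.11 to -0.16) in Foxp3-negative CD4 T cells and -1.68 (-1.96 to -1.40) in CD8 T cells. Itgb7, which pairs with Itga4, was at 445 and 324 CPM in members, at -0.46 (-0.64 to -0.28). The 14 measured genes of adhesion and residency had a median of -0.14, with 10 lower, where of all genes of that level 46.1% were higher, with a median of -0.03.

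Prdx2, a peroxidase that removes hydrogen peroxide, was at 253 and 136 CPM, at -0.89 (-1.15 to -0.64). Gadd45gip1, which acts in the mitochondrial ribosome, was at 56.0 and 21.4 CPM, at -1.39 (-2.01 to -0.78), and Acot7, an acyl-CoA thioesterase gene, at 103 and 51.5 CPM, at -1.01 (-1.42 to -0.59). Iscu, the scaffold of iron-sulfur cluster assembly, was at 90.1 and 42.2 CPM, at -1.09 (-1.55 to -0.65). Its 5 highest WT cells held 50.5% of the UMIs. The Iscu ratio was -0.30 without the 5 highest cells of each library, which are a larger part of the WT members. It was -0.38 with a mitochondrial maximum of 5%. Ttn, the titin gene, was at 68.3 and 30.1 CPM, at -1.18 (-1.71 to -0.65), with 25% and 50.9% of its UMIs in 5 cells.

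Genes of DNA replication were also measured in members, since the rule had removed only cells with several mitotic UMIs. Of 17 measured proliferation genes outside the rule 15 were lower in Ifnar1-SA, 5 by at least 1.5-fold, with a median of -0.48, where of all genes of this level 46.1% were higher and 5.57% lower by at least 1.5-fold. Pcna, the sliding clamp of DNA polymerases, was at 166 and 100.3 CPM, at -0.73 (-1.03 to -0.42), and Hmgb2 at 739.9 and 496 CPM, at -0.58 (-0.72 to -0.44). Tyms, Dut and Mcm3 had ratios of -0.76, -0.69 and -0.69. The median was -0.23 among members with no cell cycle UMI and -0.12 with a mitochondrial maximum of 5%, so its size depends on both limits, and it was 0.80 in the 12 Ifnar1-SA members with Y-linked transcripts only. In CD8 T cells all 17 measured genes were lower, with a median of -0.25. Foxp3-negative CD4 T cells had a median of 0.23 over 16 genes, 9 of them higher, and cycling regulatory T cells 0.03 over 24 genes, 13 of them higher.

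Of all genes of this level 46.1% were higher in Ifnar1-SA and 5.57% lower by at least 1.5-fold, with a median of -0.03, and the lists of metabolic genes lay beside this. Of 22 genes of glycolysis and hypoxia 16 were lower, with a median of -0.10, Hk2 at -0.62 and Egln3 at -0.93 being the 2 past 1.5-fold. Gapdh was at 2392 and 2394 CPM. Of 11 lipid and sterol genes 8 were lower, with a median of -0.30, and Scd2, a fatty acid desaturase, was at 45.5 and 18.1 CPM, at -1.33 (-2.02 to -0.66). Of 18 genes of dissociation stress 11 were higher and 7 lower, none by 1.5-fold, with Hspa1a at 1569 and 1921 CPM and Junb at 1585 and 1128 CPM.

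Genes of T cell receptor activation, lineage choice and survival had medians near 0. Over all genes of that level 46.1% were higher, 3.54% by at least 1.5-fold, and 5.57% were lower by that much. Of 19 activation genes 11 were lower, with a median of -0.06, and Nr4a2 was past 1.5-fold at -0.68 (-1.15 to -0.20). Of 18 lineage regulators 9 were higher and 9 lower, with a median of -0.01. Zeb2, at 0.93 (0.19 to 1.73), and Foxo3, at -0.87 (-1.55 to -0.19), lay past 1.5-fold in opposite directions. Of 17 survival genes Bcl2l11, which encodes the death factor BIM, was higher at 0.81 (0.17 to 1.5) and Fas lower at -0.73 (-1.33 to -0.13), with a median of -0.08. Of 7 measured genes of resting regulatory T cells 5 were higher, none by 1.5-fold, among them Il7r at 0.42 (0.27 to 0.58).

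**Figure D5:**
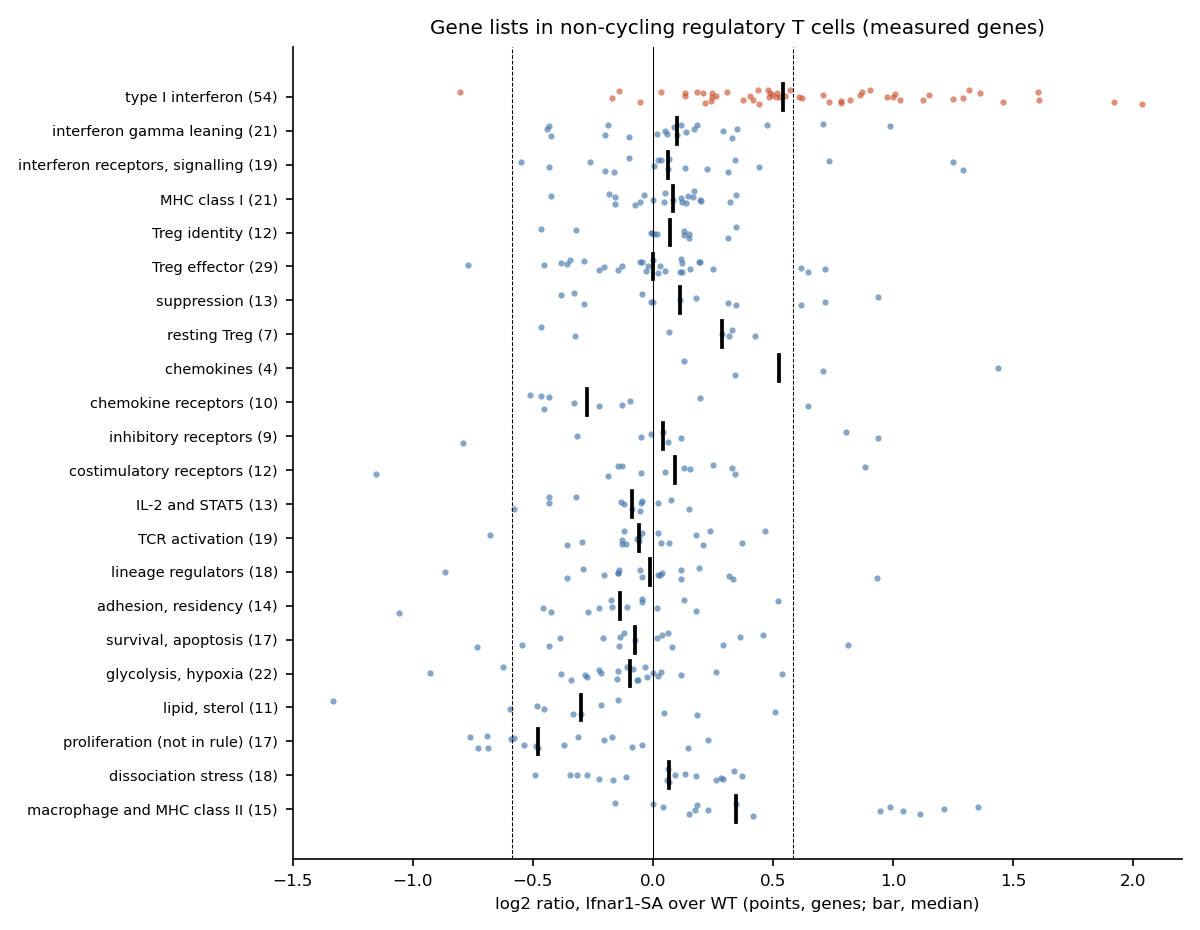
Log2 ratio of Ifnar1-SA over WT for the measured genes of 22 lists in non-cycling regulatory T cells, with the number measured in parentheses. Points are genes, black bars list medians and dashed lines 1.5-fold. The type I interferon list, in red, has a median of 0.54, and proliferation genes outside the rule have -0.48.

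Variation between members was measured by the Fano factor, the variance of a gene's thinned UMIs over its mean, which is 1 for counting noise alone. Over 3864 genes its median was 1.07 in each library. Ccl4 ranked first in both, at 20 in WT and 37.0 in Ifnar1-SA, on means of 0.894 and 2.23 UMIs per cell. Malat1 followed at 17.7 and 30.6, Ifi27l2a at 12.9 and 16.7, Ccl5 at 7.92 and 8.71, Areg at 7.88 and 13.1 and the heat shock gene Hspa1a at 6.82 and 9.10. The abundant genes Tmsb4x and Actb were thus among the most variable, beside Ccl4, Ccl5, Areg and Ifi27l2a of the interferon list. In all, 9 genes were among the first 15 of both libraries. Isg15 ranked 63 in WT and 23 in Ifnar1-SA, and Ifit1 106 and 27. Cst3 ranked 1584 in WT, at 1.11, and 2 in Ifnar1-SA, at 34.0, where 5 cells held 64.9% of its UMIs. Spp1, an osteopontin gene of macrophages, was at 7.39 and 30.2, with 95.7% and 91.5% of its UMIs in 5 cells.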

How the data were processed

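Each genotype had 1 library of raw, unfiltered 10x data, and the deposited values are UMI counts per gene and barcode which per the file headers came from Cell Ranger 4. The submitters' processing notes name mm10 as the build. Gene coordinates are those of mm10 and promoter sequences are from RefSeq (GRCm38.p6). The members, gene lists and tests were chosen with earlier results of these data known.

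Counts were summed over the members of a library and scaled to CPM, and ratios carry exact conditional binomial 95% intervals for 2 Poisson counts. Shares carry Clopper-Pearson intervals. Both cover counting error and not variation between animals. Compared genes reached 50 CPM in a library and 30 UMIs in all, and list genes counted as measured at 20 CPM or more on average. Thinning drew 2000 UMIs per cell and left out 21 WT and 37 Ifnar1-SA members that were shallower. Macrophages for comparison had a macrophage sum of at least 20.

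Doublets were kept. Scrublet's automatic limit marked 0 and 2 barcodes, so it had not worked, and its highest scores (156 and 201 barcodes) were removed as an alternative. Only 1 and 0 of these were members, so this alternative could hardly change the members' ratios and is no check of them for doublets. Named genes were the 15 highest and lowest ratios whose interval lay wholly outside 1.5-fold, leaving out predicted, mitochondrial, ribosomal, antigen receptor, sex-linked and rule genes, then Ifnar1, Ifnar2, the markers, the most abundant and most different genes of each list, and the first 15 genes by Fano factor. Genes compared with other T cell classes were named after their values were seen. The alternatives were other limits of the rule, scalings, filters, doublets, free RNA and sex-linked transcripts. A macrophage sum of 0, leaving out cells rich in MHC class II and including cycling cells were added after seeing the data. Some genes are not analysed here. The scripts were tested on simulated data and used Python 3.11.15, numpy 2.4.6, scipy 1.17.1, pandas 2.3.3 and scanpy 1.11.5.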

Additional observations from a re-analysis of the deposited data

Results flagged for a closer look

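Of 91 named genes described above, 19 had ratios of Ifnar1-SA over WT on opposite sides of 0 in the members and in another T cell class of the same libraries, each with an interval that excludes 0. Many of the 91 were named for their ratios in members, and the share over all compared genes is not given, so the count of 19 is only a description. The difference between the classes was not tested for any of them, and the intervals cover counting error only. All values are log2 ratios.

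In Foxp3-negative CD4 T cells, Ifitm1 had a ratio of -0.45 against 2.21 in members, H2-Eb1 -1.0 against 1.35, and H2-Ab1 -1.08 against 0.94. All 3 members' ratios rest on few cells. Ifitm1 UMIs were found in 4 WT and 15 Ifnar1-SA members, and in Ifnar1-SA 5 members held 70.9% of the H2-Eb1 UMIs and 74.5% of those of H2-Ab1. Pdcd1, the gene of the inhibitory receptor PD-1, was at 0.80 in members, -0.70 in Foxp3-negative CD4 T cells and -0.25 in CD8 T cells. Itgb7, an integrin gene, was at -0.46 in members, 0.38 in Foxp3-negative CD4 T cells and 0.49 in CD8 T cells.

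Most of the genes were opposite in CD8 T cells. Lower in members and higher in CD8 T cells were Iscu at -1.09 and 0.36, Cd226 at -1.15 and 0.27, Cd200 at -0.79 and 0.64, Junb at -0.49 and 0.17, Il2ra at -0.32 and 0.40, Tgfb1 at -0.29 and 0.36, and Tnfrsf9 at -0.14 and 0.37. Areg, of the markers, had -0.38 in members and 1.18 in CD8 T cells, where its level was 39.5 CPM in WT against 89.4 CPM in Ifnar1-SA. Higher in members and lower in CD8 T cells were Hspa1a at 0.29 and -0.22 and Ccl5 at 0.13 and -0.17.

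In cycling regulatory T cells the ratio was opposite for 4 genes. Pcna was at -0.73 in members and 0.24 in cycling cells, and Il1rl1, the gene of the interleukin-33 receptor, at -0.77 and 0.58. Cxcl10 was at 0.71 and -1.18, and Tnfrsf18 at 0.13 and -0.22.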

How the results depend on the processing

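No paired analysis was possible because each genotype has 1 library, and for the same reason no library could be left out. The difference in share of kept barcodes, 2.23 points, was 4.58 among Xist-only cells, 0.84 with a macrophage sum of 0, 1.21 with cycling cells included and -2.92 when only Ifnar1-SA cells with Y-linked UMIs and no Xist were set against WT. Of the genes at least 1.5-fold different, 89 higher and 94 lower, there were 251 and 380 with a minimum of 20 CPM, 222 and 235 after thinning, 189 and 238 with a macrophage sum of 0, 145 and 40 without the 5 highest cells of each gene, 34 and 9 by interval and 851 and 688 for the Y-linked-only cells. The 5 highest cells are a larger part of the 209 WT than of the 369 Ifnar1-SA members, so leaving them out does not treat the libraries alike. With a cell cycle sum of 0, 140 were higher. With cells weighted equally 151 were lower, and with scaling that left out mitochondrial and ribosomal UMIs 167 were. In the Y-linked-only cells, 12 members, the type I interferon median was -0.10, that of the macrophage list -0.75, Ifit1 -2.02, H2-Eb1 -0.90, Ifi213 -1.53, Irf7 -0.20, Usp18 -1.32, Iscu 0.19, Gzmb -0.12, Cst3 -0.45 and H2-Ab1 -1.47. The values of these 12 cells are given without intervals, and for genes of low level they rest on few UMIs. With a macrophage sum of 0 the macrophage list, then without the rule's macrophage genes, was at -0.11, Cst3 at -0.046 and H2-Ab1 at -0.40. Cst3 was at -0.082 without its 5 highest cells, and without the members rich in MHC class II Cst3 was at -0.16 and H2-Ab1 at -0.28. The cause was not tested in any of these. Of single genes and other lists, 4184 values stayed within counting error of the main value and 438 moved further. Another 16 changed sign, counted only for genes whose main interval lay wholly past 1.5-fold and lists whose median interval excluded 0. Sign changes of other genes and lists are among the 4184 and 438. Several alternatives kept nearly the same cells or only rescaled them, so their values could hardly move and the 4184 do not measure robustness. All 247 values stayed with at least 5 T cell UMIs and with centring on the median of all compared genes. With a macrophage sum of 0, 53 moved and 3 changed sign. Genes of few UMIs are limited by depth.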
